A study of Mus musculus with 16 samples.

Results

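The comparison described here asks how mouse liver differs when 1 copy of Sav1 is missing, averaged over livers with and without Rassf1a. It sets the mean of the Sav1+/- and Rassf1a-/- Sav1+/- genotype means (8 arrays) against the mean of the wildtype and Rassf1a-/- genotype means (8 arrays), so all 16 arrays of the series, 4 for each of 4 genotypes, take part. All mice are of strain 129. The 8 samples on the first side are heterozygous for Sav1, 4 of them on a wildtype Rassf1a background and 4 lacking Rassf1a. The 8 samples on the other side carry both Sav1 copies, again 4 with and 4 without Rassf1a. Sex, age, how the alleles were made and whether each array is a separate animal were not given in the sources used here. The p-values therefore refer to the spread among these 16 samples, part of which may be technical. Of 35556 probe sets, 21789 name exactly 1 gene, and they stand for 19939 genes. Of these, 13152 genes reached the 40th percentile of an array in at least 4 arrays and were tested, each through its brightest probe set.

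Sav1 (Salvador) is the adaptor that holds the kinases Stk3 and Stk4 of the Hippo pathway together with their substrates. Active Stk3 and Stk4 switch on Lats1 and Lats2, which phosphorylate the co-activators Yap1 and Wwtr1 and keep them out of the nucleus, away from the TEAD transcription factors. In liver the pathway is known for its control of organ size and of tumour growth, and Rassf1a is a scaffold protein that binds Stk3 and Stk4.

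The promoters of the 3 genes that passed the test are shown with that of Ccn1, a textbook YAP target, because TEAD factors bind the core letters CATTCC. Each run is the 250 bases before the gene's start on the gene's own strand, from RefSeq (build GRCm38.p6), and capitals mark CATTCC or its reverse complement GGAATG, both searched. For Wnt5b the first of its listed windows is given.
Sav1 promoter: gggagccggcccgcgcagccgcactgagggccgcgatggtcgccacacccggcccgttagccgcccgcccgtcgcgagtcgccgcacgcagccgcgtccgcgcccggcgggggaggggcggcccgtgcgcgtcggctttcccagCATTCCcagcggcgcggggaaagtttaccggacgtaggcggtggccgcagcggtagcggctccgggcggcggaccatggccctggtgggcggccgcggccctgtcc
Wnt5b promoter: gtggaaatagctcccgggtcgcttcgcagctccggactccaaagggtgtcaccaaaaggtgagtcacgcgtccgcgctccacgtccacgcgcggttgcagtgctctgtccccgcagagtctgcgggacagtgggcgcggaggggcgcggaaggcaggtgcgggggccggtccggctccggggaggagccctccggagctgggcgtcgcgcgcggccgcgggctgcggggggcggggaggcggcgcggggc
Atg4d promoter: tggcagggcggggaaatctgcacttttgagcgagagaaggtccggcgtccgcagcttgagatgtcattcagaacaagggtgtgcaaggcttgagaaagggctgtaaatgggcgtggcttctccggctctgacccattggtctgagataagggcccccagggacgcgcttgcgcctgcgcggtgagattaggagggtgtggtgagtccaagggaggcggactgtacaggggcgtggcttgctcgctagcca
Ccn1 promoter: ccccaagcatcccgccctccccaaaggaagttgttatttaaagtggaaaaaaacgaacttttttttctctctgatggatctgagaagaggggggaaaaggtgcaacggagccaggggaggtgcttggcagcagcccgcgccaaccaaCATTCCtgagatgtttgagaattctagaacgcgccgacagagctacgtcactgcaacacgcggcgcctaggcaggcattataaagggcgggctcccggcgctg

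The Sav1 window lies at chr12:69987003-69987252 on the minus strand, the Wnt5b window at chr6:119544348-119544597 on the minus strand, the Atg4d window at chr9:21265035-21265284 on the plus strand and the Ccn1 window at chr3:145649986-145650235 on the minus strand. The core letters begin 106 bases before the Sav1 start and 103 bases before the Ccn1 start, and were not in the windows of Wnt5b or Atg4d. Of all 32851 promoter windows of this length, 12.6% hold them. A match is a description of the letters, not a binding site.

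Arrays of a genotype correlated with each other at a median Pearson r of 0.948 (0.889 to 0.984 over 24 pairs, across genes), against 0.934 for arrays of different genotypes. In 5 arrays the mean log2 signal of the Y-linked genes Eif2s3y, Uty and Kdm5d was 8.87 or more and Xist, the RNA that coats the inactive X chromosome, was 4.31 or less. In the other 11 arrays the Y-linked mean was 4.17 or less and Xist 10.3 or more. The class of high Y-linked signal holds replicate 2 of Rassf1a-/-, replicates 3 and 4 of Sav1+/- and replicates 1 and 2 of Rassf1a-/- Sav1+/-. Hence 4 of 8 arrays with 1 Sav1 copy and 1 of 8 with 2 copies are of this class, and 622 of 13152 genes (4.73%) differed between the classes within genotypes at an adjusted p under 0.05 (limma, Benjamini-Hochberg), 1.81% higher and 2.92% lower in the high class. Results are therefore given without this class, with it as an added term, and in the 11 arrays of low Y-linked signal alone (4 against 7). The arrays that fit their genotype's means least well, by limma's array weights, were Sav1+/- replicate 2 (weight 0.276), Sav1+/- replicate 1 (0.279) and Rassf1a-/- Sav1+/- replicate 4 (0.455), all with 1 Sav1 copy and of low Y-linked signal.

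Sav1 itself was lower in livers heterozygous for it. Its log2 signal (probe set 10400795) was 8.55, 8.37, 8.61 and 8.60 in the wildtype arrays and 8.68, 8.46, 8.54 and 8.78 in the Rassf1a-/- arrays. It was 7.60, 8.17, 7.38 and 7.40 in the Sav1+/- arrays and 7.63, 7.73, 7.30 and 7.96 in the Rassf1a-/- Sav1+/- arrays. All 8 arrays with 1 copy lay below all 8 with 2 copies, and the highest heterozygous values came from Sav1+/- replicate 2 and Rassf1a-/- Sav1+/- replicate 4. The difference was -0.93 on the log2 scale (SE 0.12, 1.90-fold lower, adjusted p = 0.0113, limma). An exact permutation test of this single value, two-sided and within Rassf1a states, gave p = 0.000408, the smallest its 4900 arrangements allow. Sav1 was lower by a like amount in each state, with -0.90 in Sav1+/- against wildtype and -0.96 in Rassf1a-/- Sav1+/- against Rassf1a-/-, and their difference was -0.07 (SE 0.25, adjusted p = 0.957). With the Y class as a term it was -0.85 (SE 0.13, adjusted p = 0.0494). In the 11 arrays of low Y-linked signal it was -0.84 (SE 0.16), with an adjusted p of 0.732. Where the probe set lies relative to the altered part of the gene was not given in the sources used here.

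Across all genes, 3 of 13152 passed an adjusted p under 0.05 (0.0228%), and all 3 were lower with 1 Sav1 copy: Sav1, Wnt5b and Atg4d. No gene passed in the higher direction (0%), and 583 higher genes (4.43%) reached an unadjusted p under 0.05. Lower genes with an unadjusted p under 0.05 numbered 1366 (10.4%), which makes 1949 genes (14.8%) in both directions. The split of 583 higher and 1366 lower was 576 and 1499 after quantile normalization, and 230 and 1976 when each array was centred on its median. Its size depended on single arrays. It was nearly even, at 1337 and 1345, without Sav1+/- replicate 1, and 1070 and 1833 without Rassf1a-/- Sav1+/- replicate 4. Lower genes were the more numerous in each of the 16 fits without 1 array. Without the 3 arrays of lowest weight and with the Y class as a term the split was 1606 higher and 1026 lower, the opposite order.

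Some genes named below reached their array's filter level, its 40th percentile, in 3 or fewer of the 8 arrays of a side. With 1 Sav1 copy these were Wnt5b (1 of 8), Slc51b (1), Dnaaf2 (1), Rassf6 (2), Mcm7 (2) and Acot1 (3). With both copies they were A4gnt (0 of 8), Cyp4a12a (1), Cyp4a12b (1), Marco (1), Oas3 (1), Cd8a (1), Dpep2 (3), Ifi27l2a (3) and Dnaaf2 (3). Apart from Dnaaf2 and Ifi27l2a (4 of 8 with 1 copy, 3 of 8 with both), such genes passed the filter mainly through the side where they are brighter. Their differences compare a signal with one among the dimmest of its arrays. The filter level is a rank within the array, and no measure of background was used here, so the size of these differences is less certain.

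Wnt5b, a secreted Wnt ligand, had log2 signals of 7.66, 8.32, 7.59 and 8.17 in the wildtype arrays and 7.93, 7.39, 7.99 and 7.88 in the Rassf1a-/- arrays. It had 7.31, 6.83, 6.87 and 6.74 in the Sav1+/- arrays and 6.91, 7.13, 7.20 and 7.30 in the Rassf1a-/- Sav1+/- arrays. The 2 sides did not overlap, with 7.31 as the highest heterozygous value and 7.39 as the lowest value with both copies. The difference was -0.83 (SE 0.13, adjusted p = 0.0480, limma), made of -0.999 in Sav1+/- against wildtype and -0.66 in Rassf1a-/- Sav1+/- against Rassf1a-/-. With 1 Sav1 copy only Sav1+/- replicate 1 reached its array's filter level (7.16 to 7.44 across arrays), so Wnt5b entered the test through the livers with both copies and no exact fold is given. With the Y class as a term the difference was -0.71 (SE 0.13, adjusted p = 0.0901).

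Atg4d, a protease that processes the autophagy proteins of the LC3 family, had log2 signals of 10.03, 9.94, 10.08 and 9.82 in the wildtype arrays and 9.64, 9.79, 9.62 and 9.73 in the Rassf1a-/- arrays. It had 9.58, 9.34, 9.35 and 9.59 in the Sav1+/- arrays and 9.04, 9.06, 9.02 and 9.40 in the Rassf1a-/- Sav1+/- arrays. The sides again did not overlap, though the highest heterozygous value, 9.59, was close to the lowest Rassf1a-/- value, 9.62. The difference was -0.53 (SE 0.09, 1.45-fold lower, adjusted p = 0.0480, limma), with -0.50 and -0.56 in the Rassf1a states. With the Y class as a term it was -0.52 (SE 0.10, adjusted p = 0.111). When each array was left out in turn, Sav1 passed in all 16 fits. Wnt5b passed in 4 of them (without wildtype replicate 3, Rassf1a-/- replicate 2, Sav1+/- replicate 1 or Rassf1a-/- Sav1+/- replicate 4) and Atg4d in the last 2 of these 4, with adjusted p up to 0.182 for each in the others.

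**Figure D1:**
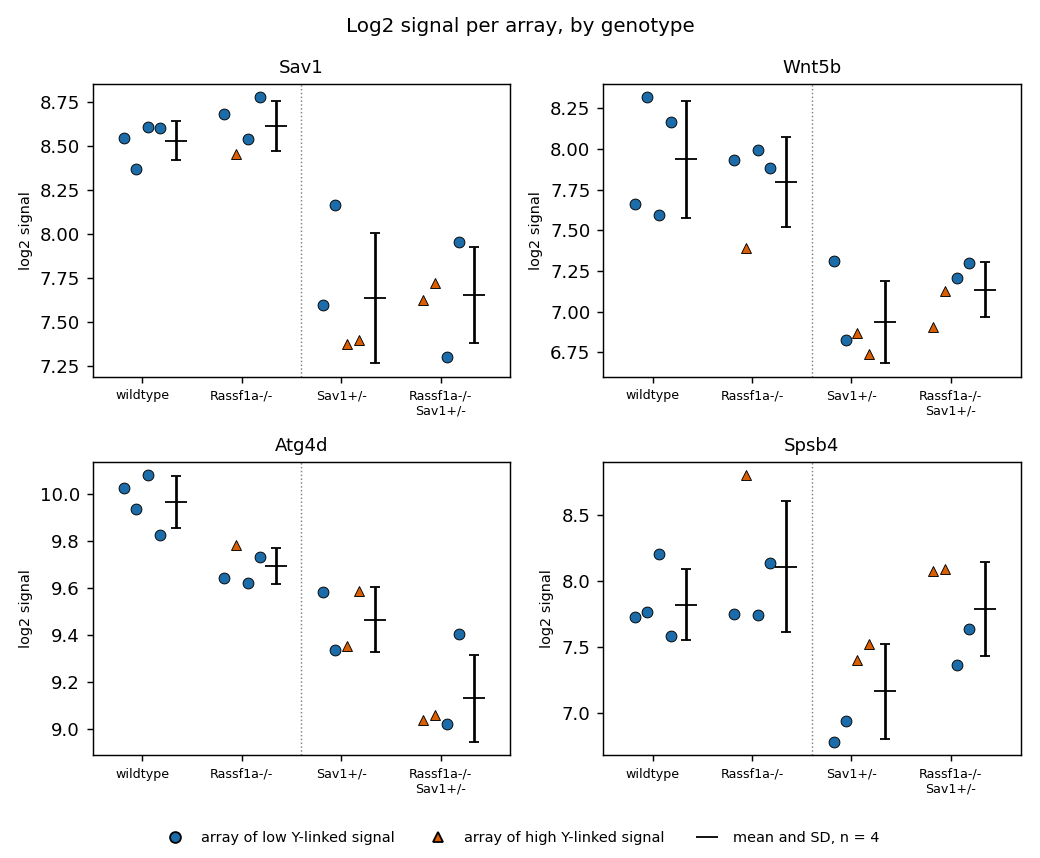
Log2 signal of Sav1, Wnt5b, Atg4d and Spsb4 in each array (y axis) by genotype (x axis). Blue circles are arrays of low and orange triangles arrays of high Y-linked signal, and bars are the mean and SD of 4 arrays; for Sav1, Wnt5b and Atg4d the 8 points right of the dotted line all lie below the 8 points left of it, and for Spsb4 they overlap.

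The next lower genes did not pass. Lrrc51, a leucine-rich repeat gene, differed by -0.66 (SE 0.11, adjusted p = 0.0503), with -0.24 in Sav1+/- against wildtype and -1.09 in Rassf1a-/- Sav1+/- against Rassf1a-/-. It was the only gene to pass in the last of these comparisons taken alone (1 of 13152, 0.0076%, adjusted p = 0.0329), and no gene passed in Sav1+/- against wildtype (0%), where 1204 genes (9.15%) reached an unadjusted p under 0.05. Mcrip2 differed by -0.60 (SE 0.11, adjusted p = 0.0703) and its sides did not overlap (at most 9.74 against at least 9.76). Pfdn6, a subunit of the prefoldin chaperone, differed by -0.48 (SE 0.09, adjusted p = 0.0773), and no array of one side overlapped the other (8.54 to 8.96 against 9.11 to 9.41). Nr1i2, the xenobiotic receptor PXR, differed by -0.49 (SE 0.09) and Ube2cbp by -0.64 (SE 0.12), both at an adjusted p of 0.0773.

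Among the higher genes, none of which passed, Gmip had the smallest p. Gmip, a GTPase-activating protein for RhoA, ranged from 7.764 to 8.28 in arrays with 1 copy and from 7.33 to 7.763 with both, so the sides nearly touched. It differed by 0.41 (SE 0.08, adjusted p = 0.0773), with 0.63 in Sav1+/- against wildtype and 0.19 in the Rassf1a-/- state. Dpep2, a membrane dipeptidase, differed by 1.51 (SE 0.34, adjusted p = 0.0834), with 10.3 in Sav1+/- replicate 4 against a median of 8.14 over the 8 heterozygous arrays. With both copies it reached the filter level in 3 of 8 arrays. Pik3ap1, a signalling adaptor of immune cells, differed by 0.57 (SE 0.14, adjusted p = 0.121). Pprc1 (0.50), Wdr62 (0.37), Snora75 (1.61), A4gnt (0.42) and Fcnaos (0.35) completed the rule, with adjusted p from 0.121 to 0.123. A4gnt was below the filter level in all 8 arrays with both copies.

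Signals with 1 and with 2 copies did not overlap for 28 lower genes (0.213%) and for 1 higher gene, Gmip (0.0076%). The 28 lower genes include, besides the 3 that passed, Ndufc2 of respiratory complex I and Psmb5 of the proteasome. The median difference over all 13152 genes was 0.02, and 54% of genes were above 0, so the excess of lower genes at an unadjusted p under 0.05 did not come with a general shift downward. The balance of lower and higher genes varied with brightness. Among the 2631 brightest genes (mean log2 signal of 10.33 or more) 16.2% were lower and 3.04% higher at that threshold, with a median of -0.05, and among the 2631 dimmest genes (7.66 or less) 5.59% were lower and 7.22% higher, with a median of 0.08. In the 3 groups between, lower genes outnumbered higher ones (7.22% against 4.71%, 9.96% against 3.65% and 13% against 3.54%, from dim to bright). After quantile normalization of the arrays the medians of the brightest and dimmest groups were -0.0024 and 0.01, and the excess of lower genes over the whole remained, as given above.

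The loss of 1 Sav1 copy can be read in each Rassf1a state, and no array belongs to both states. The Y class is uneven in the same direction in each, with 0 of 4 wildtype and 2 of 4 Sav1+/- arrays in the high class. For Rassf1a-/- and Rassf1a-/- Sav1+/- it is 1 of 4 and 2 of 4. Differences tied to the Y class can thus give like signs in both states, so the 2 readings are not independent. Of all genes, 58.2% differed in the same direction in both (Pearson r = 0.36 across 13152 genes, which are not independent). Of 197 genes with an unadjusted p under 0.01 in Sav1+/- against wildtype, 137 (69.5%) had the same sign in Rassf1a-/- Sav1+/- against Rassf1a-/-. Of 656 genes chosen the other way, 410 (62.5%) had, which was 334 of 479 lower genes (69.7%) and 76 of 177 higher genes (42.9%). Over all genes, 54.1% were lower in Sav1+/- against wildtype, where these signs were read. Chosen in Sav1+/- against wildtype, 118 of 170 lower genes (69.4%) and 19 of 27 higher genes (70.4%) had the same sign. Over all genes, 39.7% were lower in Rassf1a-/- Sav1+/- against Rassf1a-/-, where those signs were read. In the arrays of low Y-linked signal (2 Sav1+/- against 4 wildtype, 2 Rassf1a-/- Sav1+/- against 3 Rassf1a-/-) r was 0.02. There the same sign was seen in 51.1% of all genes, in 59 of 139 (42.4%) genes chosen one way and in 60 of 99 (60.6%) chosen the other way.

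**Figure D2:**
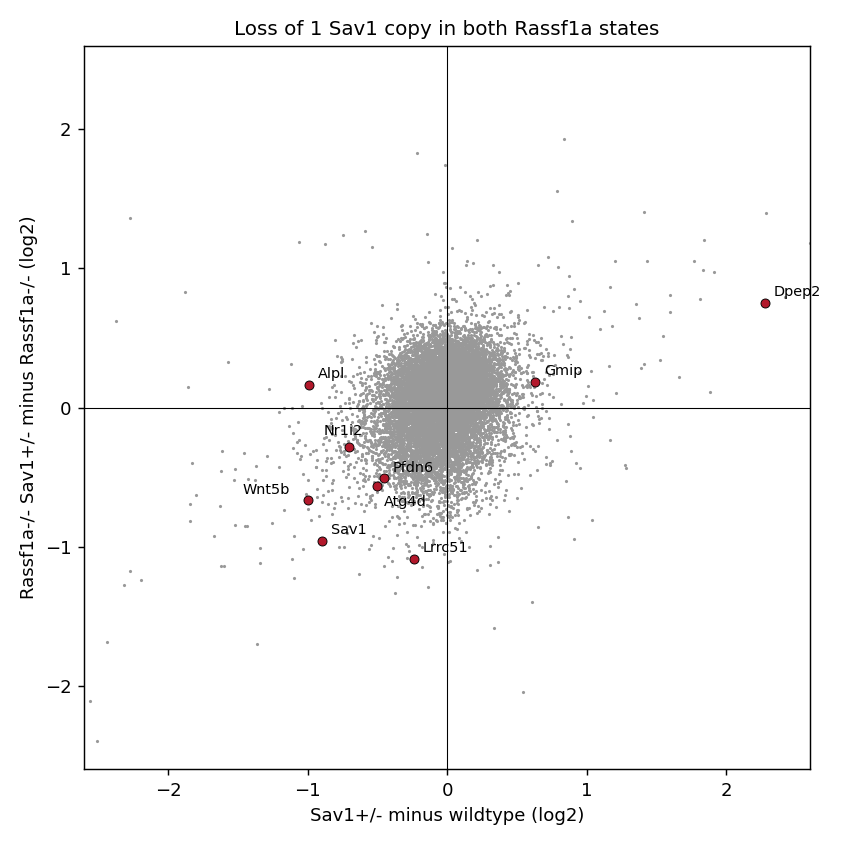
Log2 difference of each of 13152 genes (grey points) in Sav1+/- against wildtype (x axis) and in Rassf1a-/- Sav1+/- against Rassf1a-/- (y axis), with named genes in red and 19 genes beyond the axes not drawn. Sav1, Wnt5b, Atg4d, Pfdn6 and Nr1i2 lie low on both axes, Lrrc51 mainly on the y axis, and Alpl on the x axis only.

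The difference between the states was also tested for each gene. No gene passed (0%), with a smallest adjusted p of 0.316 (limma). At an unadjusted p under 0.05 there were 1236 genes (9.4%). The genes of smallest p with a more positive difference in the Rassf1a-/- state were Alpl, the tissue-nonspecific alkaline phosphatase (1.15), Slc9a8 (1.11), Rhbdd2 (0.97) and Pigs (0.93). Those with a more negative difference were Lsm1 (-1.004), Sntg2 (-0.90), Slirp (-0.87) and Slc35d2 (-0.86). Alpl differed by -0.99 in Sav1+/- against wildtype and by 0.16 in the Rassf1a-/- state. It passed without Rassf1a-/- Sav1+/- replicate 3 (adjusted p = 0.0338), and with the Y class as a term 1 gene passed (0.0076%), the gene model 9030619P08Rik, named here after its value was seen.

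With the Y class as an added term, 2 genes passed (0.0152%), Sav1 and Spsb4, and 1130 lower (8.59%) and 392 higher (2.98%) genes had an unadjusted p under 0.05. Spsb4, a substrate adaptor of ubiquitin ligases, had log2 signals of 7.73, 7.76, 8.21 and 7.59 in the wildtype arrays and 7.75, 8.80, 7.74 and 8.14 in the Rassf1a-/- arrays. It had 6.79, 6.94, 7.41 and 7.53 in the Sav1+/- arrays and 8.08, 8.09, 7.36 and 7.64 in the Rassf1a-/- Sav1+/- arrays. In the 3 genotypes that hold both classes its high values came from the arrays of high Y-linked signal, and it was 0.68 higher in that class (adjusted p = 0.00263). The Sav1 difference was -0.74 with the term (SE 0.14, adjusted p = 0.0494) and -0.49 without it (SE 0.17, adjusted p = 0.200). Ccdc107 (-0.64) and Pfdn6 (-0.52) followed with adjusted p of 0.0901.

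The arrays of low Y-linked signal alone gave no gene at an adjusted p under 0.05 (0%), with a smallest adjusted p of 0.312 and 612 genes (4.65%) at an unadjusted p under 0.05. The side with 1 Sav1 copy held only 4 arrays in this fit, among them the 3 of lowest weight, and 7 residual degrees of freedom remained. No conclusion on the Y class is drawn from the lack of calls. In these arrays Wnt5b was at -0.77, Atg4d at -0.48, Pfdn6 at -0.47 and Gmip at 0.34, each with the sign of the fit on all arrays.

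Cyp4a12a, a male-biased fatty acid hydroxylase of the cytochrome P450 family, had the widest difference among the higher genes of the fit with the Y class. Its log2 signal was 13.05 to 13.24 in the 5 arrays of high Y-linked signal, whatever their genotype. In the arrays of low Y-linked signal it was 4.22, 3.41, 3.28 and 3.12 in wildtype and 3.58, 4.36 and 4.99 in Rassf1a-/- livers. It was 6.65 and 4.93 in Sav1+/- and 6.20 and 6.33 in Rassf1a-/- Sav1+/- livers, so only the 4.93 of Sav1+/- replicate 2 lay within the range of livers with both copies. The difference was 4.57 without the term (SE 1.55, adjusted p = 0.185), 1.73 with it (adjusted p = 0.0901) and 2.12 in the low class alone. These low-class values lie below the filter level of each array. With the term and without Rassf1a-/- replicate 2, Cyp4a12a was the only 1 of 13152 genes to pass (adjusted p = 0.0329, limma). That array is the only 1 of high Y-linked signal with both Sav1 copies. The neighbour of Cyp4a12a in name and sequence, Cyp4a12b, whose probes may share transcripts with it, differed by 3.60 without the term, 0.98 with it and 1.12 in the low class alone.

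The sex-biased liver genes as groups moved with the Y class. None of 26 male-biased and none of 25 female-biased genes passed, whereas 18 and 23 of them differed between the Y classes at an adjusted p under 0.05. The male-biased median was 0.72 on all arrays and 0.03 with the Y class as a term, and the female-biased median was -1.04 and 0.13. In the arrays of low Y-linked signal the medians were -0.03 and 0.13. Acot3, a peroxisomal thioesterase, went from -2.34 to -0.51 with the term and Cspg5, a proteoglycan, from 0.36 to 0.27. Lifr, the receptor of leukaemia inhibitory factor, stayed at 0.41 and 0.40 (adjusted p = 0.155 and 0.299), and Lpl, lipoprotein lipase, at 0.86 and 0.80.

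**Figure D3:**
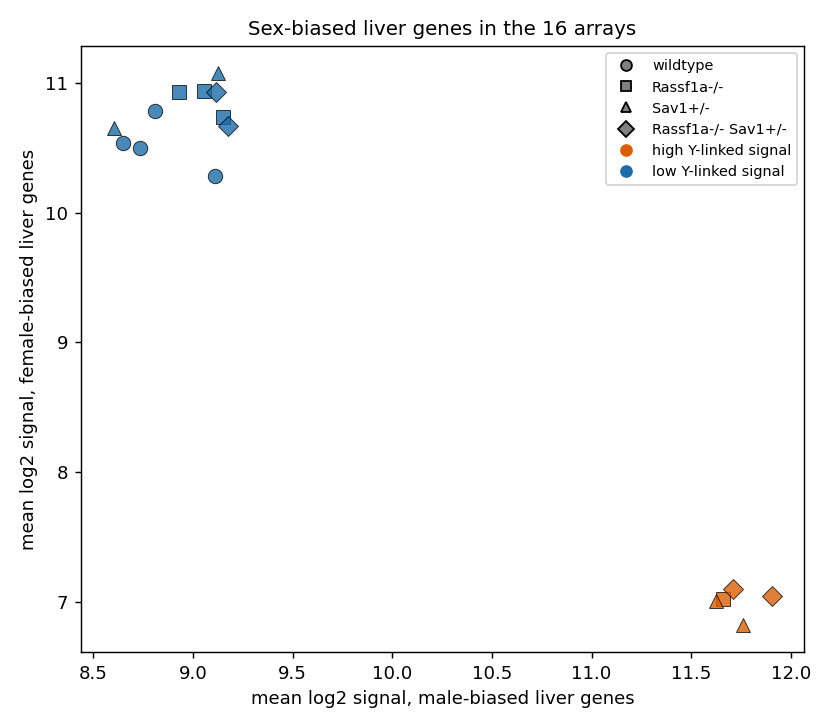
Mean log2 signal of the male-biased (x axis) and female-biased (y axis) liver gene lists in each of 16 arrays, with symbols for genotype and colours for the class of Y-linked signal. The 5 arrays of high Y-linked signal lie apart at low female-biased signal, and 4 of them have 1 Sav1 copy.

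Among Hippo pathway components, Sav1 was the only 1 of 33 tested genes to pass. Of the 33, 21 were above 0, and 1 higher and 4 lower (Sav1 counted) had an unadjusted p under 0.05, with a median of 0.06 beside 0.02 for all genes. For this list and those below, the shares over all genes were 54% above 0, and 4.43% higher and 10.4% lower at that threshold. The kinase Stk4 differed by 0.10 (SE 0.10), the kinases Lats1 and Lats2 by 0.17 (SE 0.11) and 0.19 (SE 0.12), and the co-activators Yap1 and Wwtr1 by 0.17 (SE 0.13) and 0.10 (SE 0.11), with adjusted p from 0.462 to 0.661. These 5 were named for their roles after the values were seen. Of the co-activators of the Lats kinases, Mob1b differed by 0.31 (SE 0.12, adjusted p = 0.247), and Mob2, a relative that binds other kinases, by -0.36 (SE 0.10, adjusted p = 0.128). Nf2, the upstream membrane protein Merlin, differed by -0.53 (SE 0.19, adjusted p = 0.204), with -0.10 in Sav1+/- against wildtype and -0.95 in the Rassf1a-/- state.

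Of 21 tested YAP target genes none passed and 14 were above 0, with a median of 0.09, and 3 higher and 1 lower had an unadjusted p under 0.05. Ccn2, a secreted matrix protein and YAP target, ranged from 8.55 to 10.6 (median 8.78) with 1 copy and from 7.86 to 8.98 (median 8.44) with both. It differed by 0.67 (SE 0.25, adjusted p = 0.225). Crim1 (0.31) and Tgfb2 (0.22), a cytokine gene, were higher and Fgf1 (-0.27), a growth factor gene, was lower, each with an adjusted p above 0.3. Ccn1, whose promoter is printed above, differed by 0.34 (SE 0.22, adjusted p = 0.459).

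Of 8 tested RASSF family genes none passed. The median was 0.18 on all arrays and 0.03 with the Y class as a term. Rassf1, of which Rassf1a is an isoform, differed by 0.22 (SE 0.14, adjusted p = 0.453). Its probe set is annotated to the gene, and which isoforms it reports was not given in the sources used here. Rassf7 differed by -0.55 (SE 0.15, adjusted p = 0.132) and by -0.36 with the Y class, Rassf6 by -0.47 and -0.31, and Rassf10 by 0.35 and 0.35. Rassf3 differed by 0.51 and by 0.14 with the Y class, and it was 0.97 higher in the high Y class (adjusted p = 0.000337).

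Genes next to Sav1 on its chromosome were examined because flanking sequence can travel with an altered allele. None of 17 tested genes among the nearest 15 on each side passed, with a median of 0.11, and 1 higher and 4 lower (Sav1 not counted) had an unadjusted p under 0.05. Dnaaf2, a dynein assembly factor, differed by -0.41 (SE 0.13), Map4k5, a kinase, by 0.32 (SE 0.11), Dmac2l by -0.40 (SE 0.17) and Psma3, a proteasome subunit, by -0.16 (SE 0.07), with adjusted p from 0.171 to 0.318.

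Nearly all members of the ribosomal and respiratory chain lists were below 0 with 1 Sav1 copy, though none of their genes passed singly. All 74 mitochondrial ribosomal protein genes were below 0, 42 of them with an unadjusted p under 0.05, beside 10.4% of all genes, and the median was -0.24. The list's mean log2 signal per array was 9.74 to 9.87 in wildtype, 9.86 to 10.01 in Rassf1a-/-, 9.56 to 9.75 in Sav1+/- and 9.46 to 9.77 in Rassf1a-/- Sav1+/- livers. The 2 sides met only where Sav1+/- replicate 4 (9.75) and Rassf1a-/- Sav1+/- replicate 4 (9.77) reached the lowest wildtype values. Mrpl45 (-0.43, SE 0.11), Mrps34 (-0.36, SE 0.09), Mrpl28 (-0.38, SE 0.10) and Mrpl12 (-0.37, SE 0.10), all subunits of that ribosome, had the smallest p, with adjusted p from 0.119 to 0.123.

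Of 73 respiratory chain genes, 71 were below 0, with a median of -0.21. Of these, 41 had an unadjusted p under 0.05, beside 10.4% of all genes and 16.2% of the 2631 brightest genes that were lower at that threshold. The list's mean log2 signal per array was 11.50 to 11.81 in Sav1+/- livers, which overlapped the wildtype range of 11.68 to 11.86. It was 11.44 to 11.66 in Rassf1a-/- Sav1+/- livers, below the Rassf1a-/- range of 11.81 to 11.97. Ndufb2, a subunit of complex I, ranged from 9.72 to 11.1 with 1 copy and from 10.6 to 11.3 with both and differed by -0.60 (SE 0.13, adjusted p = 0.0773). Ndufb9 (-0.37), Ndufs8 (-0.34) and Ndufc2 (-0.31), of the same complex, had adjusted p from 0.103 to 0.122, and Ndufc2 did not overlap (12.69 to 12.98 against 13.01 to 13.36).

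Of 59 cytosolic ribosomal protein genes, 57 were below 0, with a median of -0.21. Of these, 33 had an unadjusted p under 0.05, beside the same 10.4% of all genes and 16.2% of the 2631 brightest. In this list the Rassf1a states stood apart, with a median of -0.03 in Sav1+/- against wildtype and -0.40 in Rassf1a-/- Sav1+/- against Rassf1a-/-. The list's mean per array was 11.47 to 11.87 in Sav1+/- livers, around the wildtype range of 11.72 to 11.82, and 11.31 to 11.63 in Rassf1a-/- Sav1+/- livers, all below the Rassf1a-/- range of 11.85 to 12.05. The mitochondrial ribosomal medians were -0.13 and -0.34 and the respiratory chain medians -0.13 and -0.30 in the same order. No test of a list's difference between states was made. Rps14 (-0.51), Rpl8 (-0.31), Rpsa (-0.37) and Rps28 (-0.36), subunits of the cytosolic ribosome, had adjusted p from 0.110 to 0.136.

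These 3 medians changed little with the Y class as a term (-0.24 mitochondrial ribosomal, -0.21 respiratory chain, -0.23 cytosolic ribosomal) or in the low class alone (-0.18, -0.17, -0.20). Over 32 alternative fits, including those without 1 array, they stayed below 0, at -0.30 to -0.18, -0.28 to -0.15 and -0.28 to -0.15. After quantile normalization, which takes out most of the shift seen over bright genes, they were -0.22, -0.15 and -0.15.

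Of 37 proteasome subunit genes 30 were below 0, with a median of -0.09. The 5 lower genes with an unadjusted p under 0.05 are a share close to the 10.4% of all genes, and the median was -0.01 in Sav1+/- against wildtype and -0.17 in the Rassf1a-/- state. Psmb6 (-0.34) and Psmb5 (-0.26), both catalytic core subunits, had adjusted p of 0.123 and 0.141. Of 12 heat shock chaperones 11 were below 0, with a median of -0.19, led by the mitochondrial chaperonin gene Hspe1 (-0.29, adjusted p = 0.159).

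**Figure D4:**
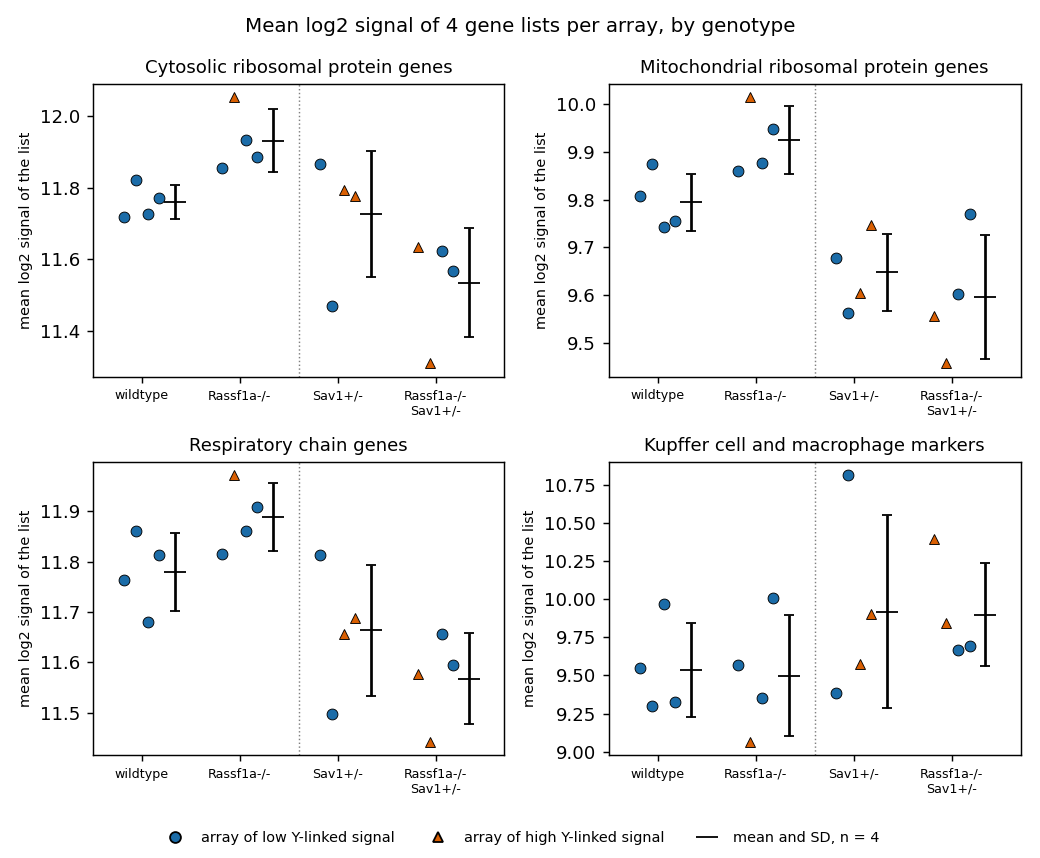
Mean log2 signal of the tested genes of 4 lists in each array (y axis) by genotype (x axis), with circles for low and triangles for high Y-linked signal and bars for the mean and SD of 4 arrays. The mitochondrial ribosomal means of livers with 1 Sav1 copy are 9.46 to 9.77 against 9.74 to 10.01, and the macrophage means overlap widely, with Sav1+/- replicate 2 highest at 10.81.

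Genes of fatty acid oxidation and other targets of the nuclear receptor PPAR alpha were mostly lower without passing. Of 30 tested, 24 were below 0, and 12 lower and 1 higher had an unadjusted p under 0.05, with a median of -0.21. At that threshold 10.4% of all genes were lower and 4.43% higher. Among the 2631 brightest genes it was 16.2% and 3.04%. Acot1, a cytosolic acyl-CoA thioesterase, ranged from 6.80 to 8.21 (median 7.17) with 1 copy and from 7.64 to 9.62 (median 8.41) with both, and differed by -1.18 (SE 0.26, adjusted p = 0.0834). Acaa1b, a peroxisomal thiolase, differed by -0.45 (SE 0.12) and Pex11a, a peroxisome division factor, by -0.37 (SE 0.10), and both kept their size with the Y class (-0.46 and -0.39). Cyp4a14, a female-biased hydroxylase and PPAR alpha target, went from -2.38 to -1.08 with the Y class with a difference of -3.46 between the high and the low class. The list's median was -0.16 with the term.

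Of 25 genes of bile acid synthesis and export 13 were above 0 and the median was 0.01. Slc51b, the beta subunit of the bile acid exporter, reached the filter level in 1 of 8 arrays with 1 copy and 6 of 8 with both. It differed by -0.98 (SE 0.21, adjusted p = 0.0834), with -1.52 in Sav1+/- against wildtype and -0.44 in the Rassf1a-/- state, and by -0.71 with the Y class. Nr1h4, the bile acid receptor FXR, differed by -0.26 (SE 0.08, adjusted p = 0.162). Abcg8 (0.46), a sterol exporter subunit, and Slco1b2 (0.32), an uptake transporter, were above 0 with adjusted p of 0.209 and 0.280. Of 21 genes of the xenobiotic receptors CAR and PXR and their targets, 12 were above 0. The receptors had the smallest p, with Nr1i2 (PXR) at -0.49 as given above and Nr1i3 (CAR) at -0.30 (SE 0.11, adjusted p = 0.217). The targets Cyp1a2 (0.16) and Abcb1a (-0.62) had adjusted p of 0.479 and 0.456, and neither kept its sign in every fit. Abcb1a was at 0.04 with the Y class as a term, and Cyp1a2 at -0.01 in the arrays of low Y-linked signal.

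Of 17 targets of NRF2, the regulator of the oxidative stress response, 11 were below 0, with a median of -0.08. At an unadjusted p under 0.05 there were 5 lower and 1 higher. The shares were 10.4% and 4.43% for all genes and 16.2% and 3.04% for the 2631 brightest. Gpx1, a glutathione peroxidase, differed by -0.36 (SE 0.10, adjusted p = 0.126), with -0.02 in Sav1+/- against wildtype and -0.70 in the Rassf1a-/- state. Gsta4 (-0.37), Srxn1 (-0.32) and Sod1 (-0.19), a transferase, a reductase and a dismutase, had adjusted p from 0.159 to 0.248.

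Markers of Kupffer cells and other macrophages were above 0 in 20 of 20 genes, none of which passed, with 3 at an unadjusted p under 0.05 and a median of 0.36. In whole liver, more cells of a type and more RNA per cell cannot be told apart. The list's mean per array was 9.39 to 10.81 with 1 Sav1 copy and 9.07 to 10.01 with both, and the sides overlapped. Mpeg1, a pore-forming protein of macrophages, differed by 0.61 (SE 0.21, adjusted p = 0.195), and Marco, a scavenger receptor, by 1.39 (SE 0.49, adjusted p = 0.202). With both copies Marco reached the filter level in wildtype replicate 3 alone, and 3 of the 20 markers reached it there in under 4 of 8 arrays. Timd4, a receptor for dying cells on resident Kupffer cells, differed by 0.50 and Adgre1, a macrophage surface receptor, by 0.53. In the arrays of low Y-linked signal Mpeg1 was at 0.51, Marco at 0.64, Timd4 at 0.32 and Adgre1 at 0.31. The median was 0.41 with the Y class and 0.31 in the low class, and lay between 0.19 and 0.47 over 32 alternative fits. Hepatocyte markers, 17 genes, had a median of 0.02 and means per array of 12.7 to 13.1 against 12.8 to 13.0.

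Of the other immune lists, 8 of 8 tested T, B and NK cell markers were above 0, beside 54% of all genes. None of them passed, and the median was 0.21. The array holds 18 genes of this list, of which only these 8 passed the filter. With both copies 2 of the 8 reached the filter level in under 4 of 8 arrays, against 0 of them with 1 copy. These 2 thus passed the filter mainly through the side where they are brighter. Cd4 (0.35), Cd3e (0.28), Cd8a (0.24) and Ighm (0.48) had adjusted p from 0.281 to 0.448. Of 24 interferon-stimulated genes 22 were above 0, beside 54% of all genes, with a median of 0.17. With both copies 2 of the 24 reached the filter level in under 4 of 8 arrays, against 0 of them with 1 copy. Oas3 reached it in 4 arrays with 1 copy and 1 with both, and Ifi27l2a in 4 and 3. The states differed in sign, with a median of 0.48 in Sav1+/- against wildtype and -0.10 in the Rassf1a-/- state, a difference that was not tested. The highest mean of this list, 9.53, was that of Sav1+/- replicate 2, the array that was also highest in macrophage markers. Ifi27l2a differed by 1.27 and -0.41 in the 2 states, and Oas3, an antiviral enzyme, by 0.39 and 0.37. The average for Oas3 was 0.38 (SE 0.12, adjusted p = 0.159).

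Of 30 autophagy genes, Atg4d was the only 1 to pass, and 15 were above and 15 below 0 with a median of -0.01. Ulk1 (0.35) and Ulk2 (0.28), the kinases that start autophagy, were above 0, and Gabarapl2 (-0.19), of the family that Atg4d processes, was below, with adjusted p from 0.276 to 0.342. Of 18 circadian clock genes 8 were above 0. Nr1d1, a repressor of the clock, differed by 0.50 (SE 0.14, adjusted p = 0.128), its relative Nr1d2 by 0.25, Clock by 0.36 and Wee1, a kinase under clock control, by -0.68 (SE 0.24, adjusted p = 0.198). In the arrays of low Y-linked signal Nr1d1 was at 0.44, Nr1d2 at 0.31, Clock at 0.14 and Wee1 at -0.41. Of 14 tested cell cycle and replication genes, 9 were above 0 with a median of 0.14, among them Ccnb2 (0.34), a cyclin, Aurka (0.38), a mitotic kinase, and Birc5 (0.28), and Mcm7 (-0.37), of the replicative helicase, was below. Their adjusted p was 0.159 to 0.406.

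**Figure D5:**
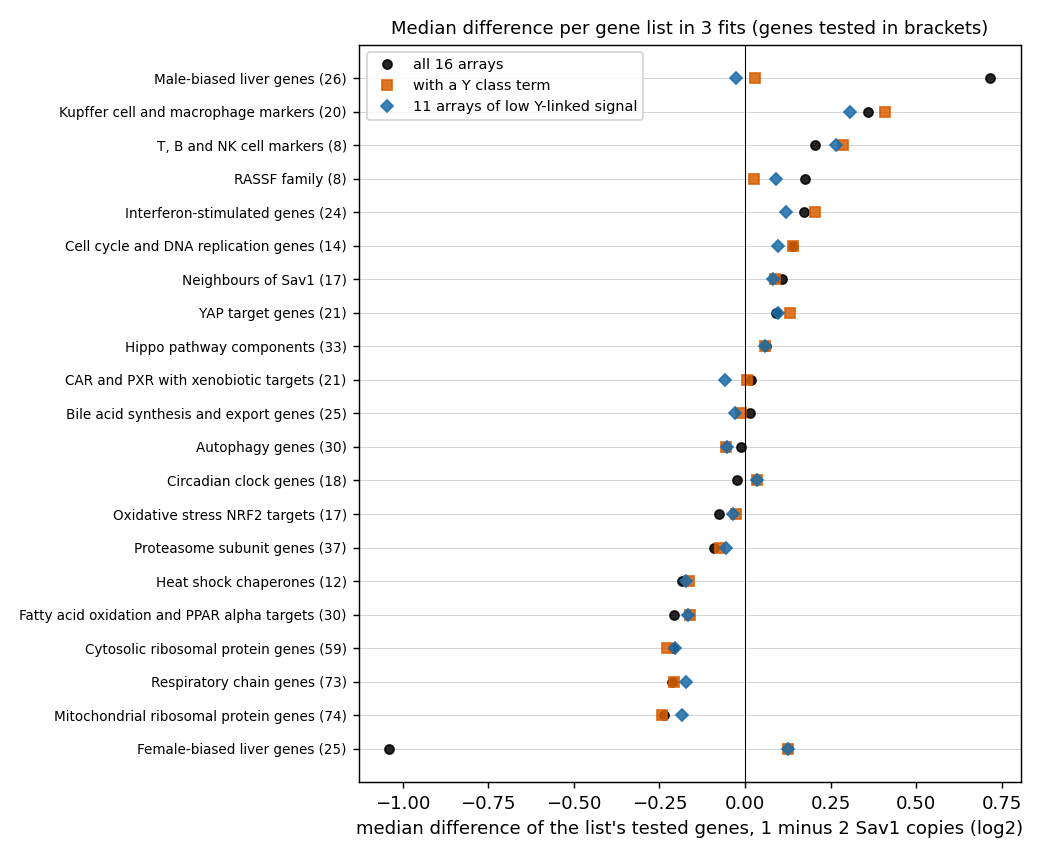
Median log2 difference, 1 minus 2 Sav1 copies, over the tested genes of each of 21 lists (y axis, number tested in brackets) in the fit on 16 arrays (black circles), with a Y class term (orange squares) and in the 11 arrays of low Y-linked signal (blue diamonds). The sex-biased lists move from 0.72 and -1.04 to near 0, while the ribosomal, respiratory chain and macrophage lists keep their side in all 3 fits.

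The number of genes that passed depended on which arrays carried weight. Without the 3 arrays of lowest weight, 1142 genes passed (304 higher, 838 lower), and with array weights 1517 (370 higher, 1147 lower). Of the 5 arrays with 1 Sav1 copy that remain without those 3, 4 are of high Y-linked signal, against 1 of 8 with both copies. With the Y class added, each of these fits gave 1 gene, Sav1, at -1.15 (adjusted p = 0.0185) and -0.96 (adjusted p = 0.0221). Leaving out Sav1+/- replicate 1 alone gave 50 of 13152 genes and leaving out Rassf1a-/- Sav1+/- replicate 4 alone gave 89 of 13152.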

How the data were processed

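Mouse liver RNA was hybridised to 16 Affymetrix whole-transcript arrays, 4 per genotype. The authors deposited log2 signals per probe set, and the submitters' processing notes name Affymetrix Expression Console. The software version, the summarisation, the normalization and the array's genome build were not given in the sources used here. Replicate numbers follow deposited order. Genes were named from the platform annotation (1621 probe sets with several genes and 12146 with none were not used), and 21698 probe sets matched RefSeq, used for names and neighbours. The number of arrays limits the precision.

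Genes were fitted with limma 3.58.1 (lmFit, eBayes; R 4.3.3; package data.table, version 1.17.8) as 4 genotype means, leaving 12 residual degrees of freedom, two-sided, with Benjamini-Hochberg adjustment over 13152 genes and calls under 0.05. Errors are limma's SE. An array was put in the high Y class where its Y-linked mean exceeded Xist. Alternatives were filters, probe set rules, quantile normalization, median centring, limma's trend and robust options, array weights, an additive fit, Y terms, and leaving out each array. Leaving out the 3 arrays of lowest weight, and fits that join weights or other settings with the Y class, were chosen after seeing the data.

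The rule named Sav1, Rassf1, up to 12 called genes per direction by size (filled to 8 by smallest p), up to 6 for the Y class fit, 4 for the interaction and 4 per described list (21 of 46 lists, those of the pathway and those with most to show). Gene models without a proper name were counted, not named, with 1 exception said in the text. The genes and lists were chosen with earlier results of these data known. The other 25 lists held no gene that passed. The pipeline was tested on simulated data. Figures were drawn with matplotlib.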

Additional observations from a re-analysis of the deposited data

Results flagged for a closer look

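For the named genes, each genotype's 4 log2 signals were searched for an array that lay far from the other 3 by Dixon's limit for the gap to the nearest array. Of 436 groups of 4 (109 genes), 28 (6.42%) held one, where chance gives about 1 in 20. In Rassf1a-/- Sav1+/- replicate 4, Atg4d was high at 9.40 (others 9.02 to 9.06), A4gnt was low at 6.89 (others 7.42 to 7.48), Lsm1 was high at 7.39 (others 7.17 to 7.19) and Cspg5 was low at 7.28 (others 8.05 to 8.11). In wildtype replicate 2, Ube2cbp was high at 8.92 (others 8.25 to 8.30), Snora75 was high at 8.41 (others 6.64 to 6.93), Clock was high at 9.86 (others 9.51 to 9.56) and Ndufb2 was high at 11.27 (others 10.76 to 10.84). In Rassf1a-/- Sav1+/- replicate 1, Pik3ap1 was high at 11.53 (others 11.06 to 11.07), Lpl was high at 9.86 (others 8.04 to 8.24) and Ighm was high at 11.18 (others 9.50 to 9.79). In Rassf1a-/- replicate 2, Cyp4a12a was high at 13.10 (others 3.58 to 4.99), Cyp4a12b was high at 12.46 (others 4.46 to 5.40), Slirp was high at 10.27 (others 9.98 to 10.02) and Acot3 was low at 8.24 (others 11.49 to 12.13). In Rassf1a-/- Sav1+/- replicate 2, Slc9a8 was high at 10.90 (others 10.50 to 10.53). In Sav1+/- replicate 4, Ccn2 was high at 9.42 (others 8.72 to 8.81) and Srxn1 was high at 9.42 (others 8.85 to 8.91). In Sav1+/- replicate 2, Mpeg1 was high at 11.40 (others 9.96 to 10.19) and Mrpl45 was high at 8.61 (others 8.20 to 8.25). In wildtype replicate 3, Timd4 was high at 10.03 (others 8.71 to 8.94) and Birc5 was high at 7.67 (others 7.42 to 7.44). In Sav1+/- replicate 1, Clock was low at 9.36 (others 10.37 to 10.55), Acot1 was high at 7.82 (others 6.79 to 6.86) and Rpsa was high at 12.05 (others 11.59 to 11.63). In Rassf1a-/- replicate 4, Cryab was high at 8.99 (others 8.25 to 8.34) and Psmb1 was low at 10.41 (others 10.62 to 10.65). In wildtype replicate 1, Gsta4 was low at 10.96 (others 11.33 to 11.38). The Cyp4a12a, Cyp4a12b and Acot3 values of Rassf1a-/- replicate 2 come from the only array of high Y-linked signal in that genotype. No gene's difference between the Rassf1a states passed its test in the fit on 16 arrays.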

How the results depend on the processing

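No paired analysis was possible because no replicate number stands in the labels. The count of 3 of 13152 genes was 1 of 19939 with no filter and 1 of 21789 over every probe set naming 1 gene. It was 19 of 8828 with a filter at the 60th percentile. Of 13152 genes, it was 19 after quantile normalization, 18 with trend and robust options, 1517 with array weights and 1142 without the 3 arrays of lowest weight. It was 1 in each of these last 2 fits with the Y class. The count was 0 with the Y-linked mean as a term, 0 in the arrays of low Y-linked signal, and 1 to 89 when 1 array was left out. Sav1 was -0.84 with the Y-linked mean (adjusted p = 0.0596) and -0.84 in the low class (adjusted p = 0.732), and -1.02 to -0.87 over the 16 fits, where it passed each time. The interaction's 0 became 1 with the Y class, 2 with array weights and the Y class (Alpl and 9030619P08Rik), and 0 to 1 when 1 array was left out. With the Y class as a term, the count of 2 was 0 with no filter, 1 at the 60th percentile, 0 after quantile normalization and 0 to 5 without 1 array. Without 1 array, Sav1 passed in 2 of 16 fits (without Sav1+/- replicate 2 or Rassf1a-/- Sav1+/- replicate 4) and Spsb4 in 1 of 16 (without the latter). Cyp4a12a alone passed without Rassf1a-/- replicate 2, and Ccdc107 alone without Sav1+/- replicate 1. Signs turned for Rassf3 (-0.00155) and Nr1d2 (-0.0457) without the 3 arrays and with the Y class, for Abcb1a with the Y class (0.0383), the Y-linked mean (0.0548), and the Y class without the 3 arrays (0.00174) or with weights (0.0170), and for Cyp1a2 in the low class (-0.00981). Why these values moved was not tested. Median centring moved the median of all genes to -0.04 and gave 230 higher and 1976 lower genes at an unadjusted p under 0.05, against 583 and 1366.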
